A study of Mus musculus with 6 samples.

Results

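The 10 genes Acta2, Actb, Tagln, Myh11, Cnn1, Rgs5, Cspg4, Notch3, Pdgfrb and Pdgfb were taken by name from a table of 37991 genes counted in bone endothelial cells (BECs) of mice. They hold 4 genes of the smooth muscle contractile apparatus, 4 genes of pericytes and other mural cells, the endothelial growth factor Pdgfb and the cytoplasmic actin Actb. The sexes were compared at 12 weeks of age in mice of strain c57/Bl6 per the labels (C57BL/6J in the study's methods), with 3 libraries from females and 3 from males. The labels name no treatment or transgene. Cells came freshly from bone, the tibia in the labels and the tibia and femur in the study's methods, and were captured by endomucin, a surface sialomucin of bone capillaries and sinusoids. Per the study's methods, the samples with the best RNA in each set were the ones sequenced. Neither source says how many animals stand behind a library, so p-values measure the spread between these libraries.

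Mural cells wrap the endothelial tube. Smooth muscle cells form the contractile coat of arteries and arterioles, and pericytes sit on capillaries and share the basement membrane with the endothelium. Sprouting endothelial cells secrete PDGF-B, which recruits mural cells through their receptor PDGFRB, and NOTCH3 on mural cells receives signals from endothelial Notch ligands. In bone, staining for the product of Acta2, alpha smooth muscle actin, is used to pick out arterioles, whereas marrow sinusoids lack a continuous muscle coat. These transcripts in endomucin-captured cells therefore bear on how much mural RNA the libraries held and whether its level differed by sex.

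Total counts ranged from 47678806 to 58325745 per library, and 3 counts, used as the floor of detection, equalled 0.0477 to 0.0639 CPM, which are counts per 1000000 counts of a library after scaling by edgeR's TMM factors. All 24 endothelial markers tested were above 0 in every library, and Emcn, which encodes endomucin, lay between 3.08 and 10.5 CPM. The endothelial list summed to 515 to 727 CPM in females and 329 to 477 CPM in males. Other marrow cells were also present in the libraries, and several of their lists drew far more of the counts than the endothelial list. A list of 14 neutrophil genes summed to 19240 to 23522 CPM in females and 32647 to 44553 CPM in males, and 8 macrophage genes to 4526 to 4821 CPM and 3024 to 4042 CPM. Across the sexes, 12 marrow stromal genes summed to 1260 to 3136 CPM, 8 erythroid genes to 12116 to 27092 CPM, 5 B cell genes to 2116 to 2542 CPM and 10 megakaryocyte and platelet genes to 40.8 to 221 CPM. In bulk RNA, fewer cells of a type and less RNA per cell cannot be told apart.

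No gene of the 10 passed the main test of the sexes, the edgeR quasi-likelihood test at an adjusted p under 0.05, which called 8 of 19480 genes (0.0411%). Of the 9 genes tested, 3 were higher in males and 6 lower, with a median log2 fold change of -0.34 (males over females), against 9699 higher and 9781 lower and a median of -0.00125 over all genes tested. At an unadjusted p under 0.05, edgeR had 2 of the 9, Acta2 and Tagln, beside 9.79% of all genes tested. The same 2 genes were those whose female and male libraries did not overlap, as was the case for 14.5% of all genes. DESeq2, the tool named in the study's methods, called Tagln among the 9 genes and 359 of 17252 genes overall (2.08%). Cnn1 did not pass edgeR's filter on low counts, and DESeq2 gave it no adjusted p.

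**Figure D1:**
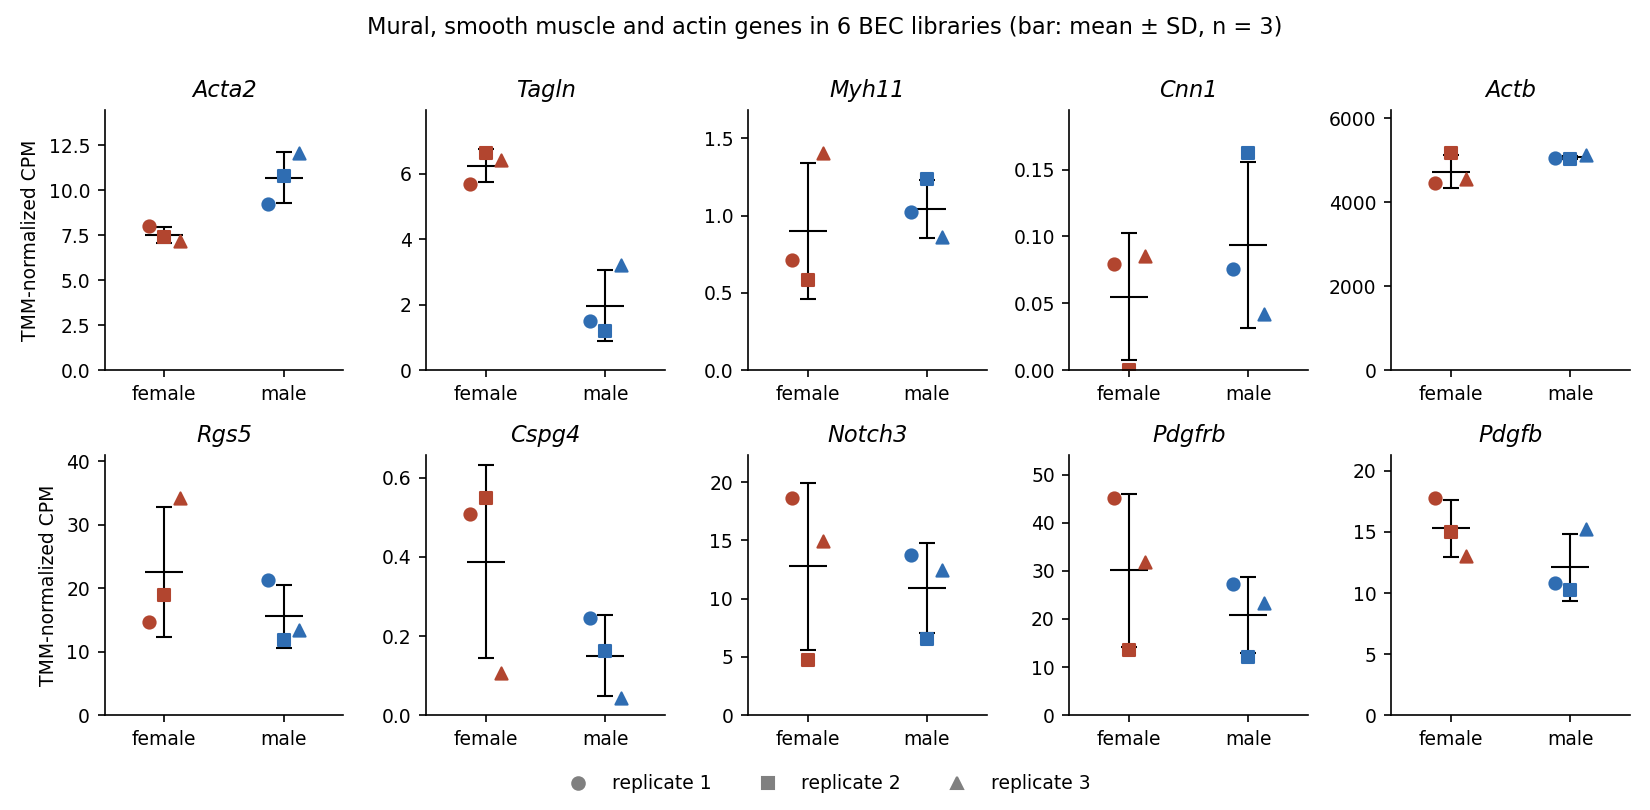
Level of each gene (TMM-normalized CPM, axis from 0, a scale of its own for each gene) in the 3 female (red) and 3 male (blue) libraries, with markers for the replicate number and the mean ± SD. Tagln and Acta2 are the panels in which the sexes separate, in opposite directions, and the squares of both sexes are the lowest points for Notch3 and Pdgfrb.

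Tagln showed the widest separation of the sexes among the 10 genes. It encodes transgelin (SM22-alpha), a calponin-family protein that binds actin filaments, and lies on the minus strand at chr9:45840909-45847404 (GRCm39). Female libraries held 5.69, 6.64 and 6.43 CPM and male libraries 1.499, 1.197 and 3.203 CPM, from 302 to 358 reads and 59 to 152 reads per library. Every male library was below every female library, and male 3 was the highest of the males. The means were 6.25 ± 0.50 CPM and 1.97 ± 1.08 CPM (SD, n = 3 each), 3.18-fold higher in females. The log2 fold change was -1.67 with SE 0.36 and a 95% confidence interval from -2.46 to -0.88 (edgeR adjusted p = 0.132). DESeq2 gave the same fold change, -1.67 with SE 0.34, at an adjusted p of 0.000265.

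The call for Tagln turned on the tool, the filter, the use of a replicate block and male 3. With no filter on low counts the edgeR adjusted p was 0.0390. With the replicate number as a block it was 0.00884, though the numbers were not taken to pair the libraries. Without male 3 the log2 fold change was -2.21 at an edgeR adjusted p of 0.0197, and when any other single library was left out the adjusted p lay between 0.270 and 0.509. The direction was the same in every alternative run. No stretch of 40 bases of the Tagln transcript recurred in the transcript of another gene. On the opposite strand 2 genes overlap Tagln, Pcsk7 and the long noncoding RNA Gm48529, and the latter is not described here. Pcsk7 had 24.4 to 27.4 CPM in females and 24.8 to 29.8 CPM in males, with overlapping sexes. Set against the endothelial list, the log2 ratio of Tagln was -6.99, -6.28 and -6.82 in females and -8.11, -8.10 and -7.22 in males. These ratios did not overlap either, with a difference of -1.11 (two-sided exact permutation p = 0.1, the smallest that 10 splits allow, or 0.3 adjusted over the 9 ratios tested).

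Acta2, which encodes alpha smooth muscle actin of arterial smooth muscle, went the other way. The gene lies on the minus strand at chr19:34217737-34232990 (GRCm39). Its level was 8.01, 7.41 and 7.15 CPM in females and 9.26, 10.8 and 12.1 CPM in males, from 336 to 573 reads. Every male library was above every female library. The means of 7.53 ± 0.44 CPM and 10.7 ± 1.41 CPM (SD, n = 3 each) gave a male level 1.42-fold higher. The log2 fold change was 0.51 with SE 0.18 and a 95% confidence interval from 0.12 to 0.90 (edgeR adjusted p = 0.379, DESeq2 adjusted p = 0.183). It was positive in all 13 alternatives, between 0.40 and 0.60, and passed the threshold in none, and its adjusted p ran from 0.183 to 0.993. Stambpl1 overlaps Acta2 on the opposite strand, and its libraries, at 24.4 to 38.95 CPM in females and 26.7 to 47.7 CPM in males, overlapped between the sexes.

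Tagln and Acta2 are commonly used side by side as smooth muscle markers, so their ratio was taken in each library, a measure added after both levels had been seen. The log2 ratio of Tagln to Acta2 was -0.49, -0.16 and -0.15 in females and -2.63, -3.17 and -1.91 in males. The 3 males lay below the 3 females, by 2.30 on average. Since each gene already separated the sexes, in opposite directions, this ratio had to separate them too and was not tested.

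The other contractile genes among the 10 rested on few reads. Myh11 encodes the myosin heavy chain of smooth muscle and lies at chr16:14012399-14109236 (GRCm39, minus strand). It had 0.715, 0.586 and 1.41 CPM in females and 1.03, 1.24 and 0.864 CPM in males, from 31 to 66 reads. Female 2 was the lowest and female 3 the highest, so the males lay inside the female range. Its log2 fold change of 0.21 had an SE of 0.43 and an interval from -0.75 to 1.18 (edgeR adjusted p = 0.908). Leaving out female 2 turned the sign, to -0.019.

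Cnn1, which encodes the smooth muscle calponin that restrains actomyosin ATPase, lies at chr9:22010512-22020926 (GRCm39, plus strand). It had 5, 0 and 4 reads in females and 4, 8 and 2 reads in males, which is 0 to 0.0852 CPM and 0.0421 to 0.162 CPM. Female 2 had none, male 3 was under the floor of 3 reads, and the others were near it. No fold is given at this depth.

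The list of smooth muscle contractile genes put these 4 genes in context. Of its 16 genes 14 were tested, 4 were higher in males and 10 lower, and the median log2 fold change was -0.45. In edgeR none passed at an adjusted p under 0.05 and 6 did at an unadjusted p under 0.05, beside 9.79% of all genes. DESeq2 called 3, beside 2.08% of all genes, all lower in males, namely Tagln, Cald1 and Tpm1. Tpm1, a tropomyosin that lies along the actin filament, had 124, 125 and 148 CPM in females and 84.1, 72.9 and 108 CPM in males. Each male was below each female, with a log2 fold change of -0.58, SE 0.16 (edgeR adjusted p = 0.244, DESeq2 adjusted p = 0.0447). Cald1 encodes caldesmon, which blocks myosin from actin. It had 50.6, 33.9 and 54.5 CPM in females and 27.8, 19.2 and 33.8 CPM in males, with male 3 only just under female 2. Its log2 fold change was -0.78, SE 0.22 (edgeR adjusted p = 0.276, DESeq2 adjusted p = 0.0371).

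Mylk, the myosin light chain kinase that starts smooth muscle contraction, had 48.4, 28.8 and 54.5 CPM in females and 24.2, 24.5 and 38.6 CPM in males. Here male 3 exceeded female 2, and the log2 fold change of -0.59, SE 0.25, came with an edgeR adjusted p of 0.477. Tpm1, Cald1 and Mylk are also made by many cells outside smooth muscle. Of the 14 genes tested, 6 had sexes that did not overlap, beside 14.5% of all genes, which were Acta2, higher in males, and Tagln, Tpm1, Cald1, Myl9 and Actg2, lower in males. The last 2 were picked out after their values had been seen. Myl9, a regulatory light chain of myosin, had 25.96, 18.6 and 21.0 CPM in females and 11.5, 7.24 and 18.6 CPM in males, so female 2 and male 3 all but met.

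**Figure D2:**
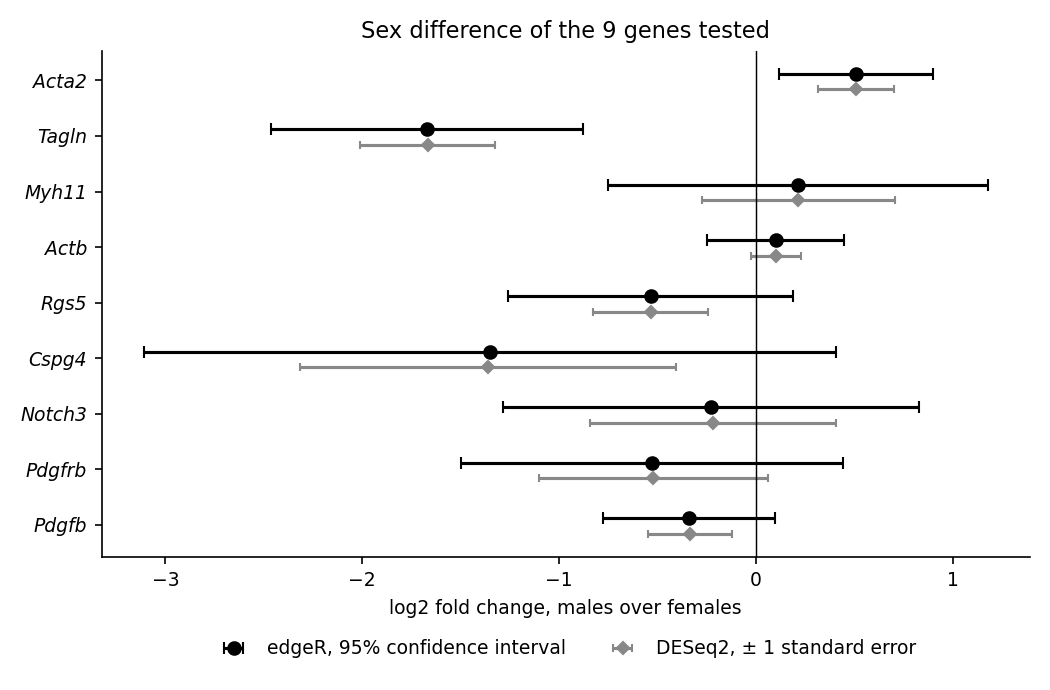
Log2 fold change of males over females for the 9 genes tested, from edgeR (black, 95% confidence interval) and DESeq2 (grey, ± 1 standard error). The edgeR intervals of Tagln (-2.46 to -0.88) and Acta2 (0.12 to 0.90) lie on opposite sides of 0, and the other 7 span it.

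Among the mural genes, the spread of Pdgfrb and Notch3 within females, at an SD of 15.9 and 7.20 CPM, was wider than the distance between the means of the sexes. Pdgfrb encodes the receptor through which PDGF-B recruits mural cells and is also expressed by perivascular stromal cells of the marrow. It lies at chr18:61178212-61218133 (GRCm39, plus strand). Females had 45.1, 13.4 and 31.7 CPM and males 27.3, 12.0 and 23.2 CPM, from 593 to 2837 reads. Female 2 and male 2 were the lowest and the sexes overlapped, with the highest library 3.75-fold above the lowest. The log2 fold change was -0.53 with SE 0.43 and an interval from -1.50 to 0.44 (edgeR adjusted p = 0.739). It ranged from -0.88 without female 2 to -0.11 without female 1.

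Notch3 encodes the Notch receptor of mural cells and lies at chr17:32339794-32385893 (GRCm39, minus strand). Females had 18.6, 4.73 and 14.9 CPM and males 13.7, 6.53 and 12.5 CPM, from 250 to 1171 reads. As for Pdgfrb, the libraries with number 2 were the lowest of each sex and female 1 was the highest of all. The log2 fold change of -0.23 had an SE of 0.46 and an interval from -1.28 to 0.83 (edgeR adjusted p = 0.910). Its sign turned without female 1, to 0.16, and without male 2, to 0.038.

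The libraries with number 2 were also low in many of the measured lists. The summed stromal list was 2989, 1511 and 3136 CPM in females and 1853, 1260 and 2423 CPM in males. The megakaryocyte and platelet list was 221, 56.2 and 132 CPM in females and 89.6, 40.8 and 109 CPM in males. In each list female 2 and male 2 were the lowest of their sex, as for Pdgfrb and Notch3, and so they were in the summed contractile, pericyte, PDGF, endothelial and osteoblast lists. Their part in the levels of these genes was not tested.

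Rgs5, which encodes a regulator of G-protein signalling abundant in pericytes, did not share this order. It lies at chr1:169483036-169524887 (GRCm39, plus strand) and had 14.7, 18.9 and 34.2 CPM in females and 21.3, 11.9 and 13.5 CPM in males, from 587 to 1605 reads. Female 3 stood highest, and male 1 exceeded female 1 and female 2. The log2 fold change was -0.54 with SE 0.32 and an interval from -1.26 to 0.19 (edgeR adjusted p = 0.627). Without female 3 it was -0.11.

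Cspg4 encodes NG2, a membrane proteoglycan of pericytes and of glial precursors, and lies at chr9:56772317-56807187 (GRCm39, plus strand). It was counted 32, 29 and 5 times in females and 13, 8 and 2 times in males. The levels were 0.509, 0.548 and 0.106 CPM against 0.247, 0.162 and 0.0421 CPM. Number 3 was the lowest library of each sex, male 3 was under the floor of 3 reads, and the sexes overlapped because female 3 was below male 1 and male 2. The fitted log2 fold change of -1.35 had an SE of 0.79 and an interval from -3.11 to 0.40 (edgeR adjusted p = 0.614, with no adjusted p from DESeq2), an interval that holds both equality and a large difference.

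Of the 17 genes of the pericyte and mural list 16 were tested. A single gene, Foxs1, was higher in males and 15 were lower, with a median log2 fold change of -0.55, and no gene passed in edgeR at an adjusted p under 0.05 or in DESeq2. At an unadjusted p under 0.05, edgeR had 3 of the 16, Abcc9, Heyl and Rgs4, beside 9.79% of all genes. Abcc9, the sulfonylurea receptor subunit of the potassium channel of mural cells, had 27.9, 15.6 and 36.4 CPM in females and 16.01, 11.2 and 17.5 CPM in males. Female 2 lay below male 1 and male 3. Its log2 fold change was -0.84, SE 0.28 (edgeR adjusted p = 0.357, DESeq2 adjusted p = 0.0769). Foxs1, Heyl, a target of Notch signalling in mural cells, and Rgs4, another G-protein regulator, were picked out after their values had been seen, and the last 2 had log2 fold changes of -0.63 and -0.93 (edgeR adjusted p = 0.450 and 0.491).

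**Figure D3:**
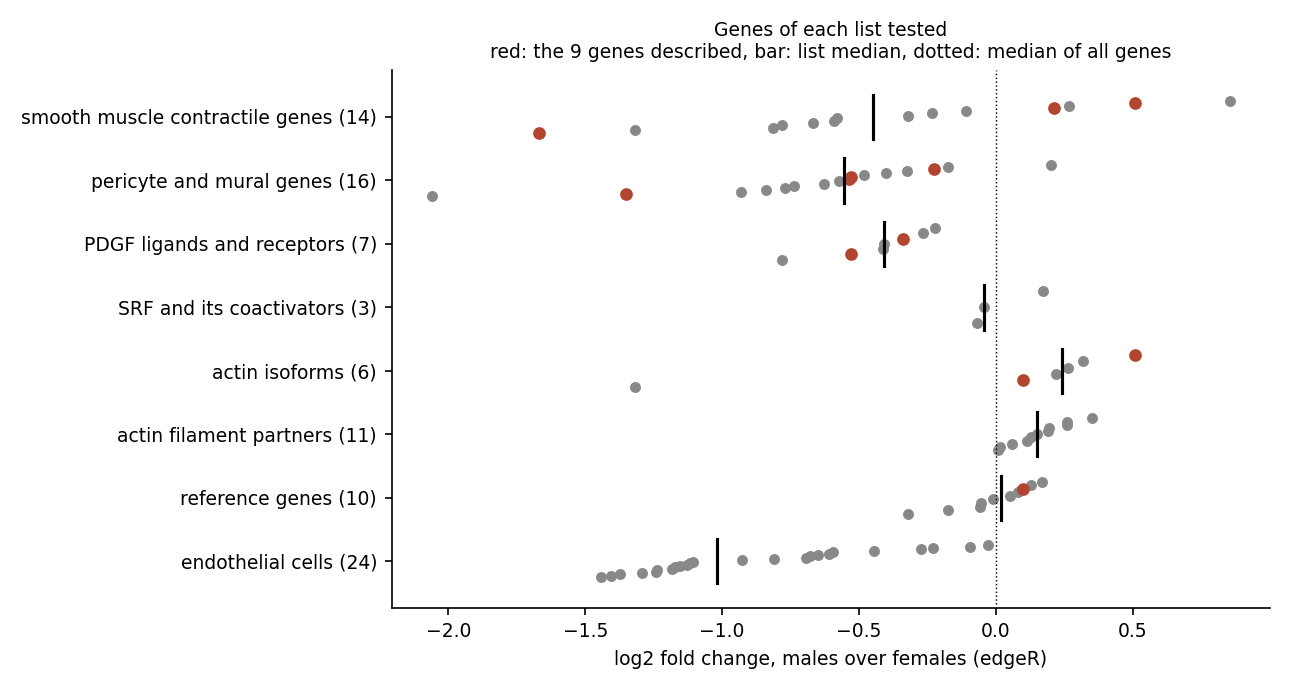
Log2 fold change of males over females (edgeR) for every tested gene of 8 lists, with the number tested in brackets, the list median as a bar, the median of all genes as a dotted line and the 9 genes described in red. The medians of the contractile (-0.45), pericyte (-0.55) and PDGF (-0.41) lists lie between 0 and that of the endothelial list (-1.02).

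The endothelial list moved in the same direction as the mural lists. All 24 of its genes were lower in males, with a median log2 fold change of -1.02, and DESeq2 called 9 of them, beside 2.08% of all genes, while edgeR called none at an adjusted p under 0.05 and 17 at an unadjusted p under 0.05, beside 9.79%. Its genes with the most counts, Stab2 and Pecam1, had log2 fold changes of -0.69 and -0.23. The contractile and pericyte lists summed to 291 ± 41.1 CPM and 140 ± 47.2 CPM in females and 196 ± 45.7 CPM and 93.7 ± 23.4 CPM in males (SD, n = 3 each). Set against the endothelial sum, the log2 ratio of the mural lists was -0.66, -0.63 and -0.54 in females and -0.50, -0.56 and -0.43 in males. Male 2 lay inside the female range and the mean difference was 0.11, the other way from the sums themselves. Both sums lean on the genes with the most counts. In the mural lists these were Tpm1, Cald1 and Mylk, which many cells outside smooth muscle also make. In the endothelial list Stab2 and Pecam1 changed less than the list median of -1.02, and the medians of the mural lists were -0.45 and -0.55. The ratio is thus not a measure of mural against endothelial cells. In the same libraries the neutrophil list was higher in every male than in any female, as given above. Its part in the lower mural and endothelial levels was not tested.

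Pdgfb encodes the ligand that endothelial cells present to mural cells and lies at chr15:79880009-79899181 (GRCm39, minus strand). It had 17.8, 15.03 and 13.1 CPM in females and 10.8, 10.2 and 15.2 CPM in males, from 505 to 1117 reads. Male 3 lay above female 2 and female 3, so the sexes overlapped. The log2 fold change was -0.34 with SE 0.20 and an interval from -0.77 to 0.10 (edgeR adjusted p = 0.612), and it was negative in all 13 alternatives, between -0.54 and -0.21. Platelets and megakaryocytes also hold PDGF-B, and their markers were above 0 in all 6 libraries. Female 1 was the highest and male 2 the lowest for both the list and Pdgfb, whereas female 2 was the second lowest for the list and above female 3, male 1 and male 2 for Pdgfb. The part of these cells in the level of Pdgfb was not tested.

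Ligands and receptors of the PDGF family gave no call in edgeR or DESeq2, and all 7 had a negative log2 fold change, with a median of -0.41. Among the ligands, Pdgfa was 7.70 to 8.05 CPM in females and 4.73 to 7.38 CPM in males (log2 fold change -0.41), and Pdgfc was 32.1 to 35.5 CPM and 23.6 to 30.2 CPM (-0.27). Of the 7 genes these 2 did not overlap between the sexes, beside 14.5% of all genes, and their edgeR adjusted p-values were 0.568 and 0.552. Pdgfd spanned 1.63 to 4.44 CPM in females and 1.10 to 2.72 CPM in males (-0.78). The receptor of PDGF-A, Pdgfra, had 5.11 to 11.7 CPM and 5.48 to 8.80 CPM (-0.22), with female 2 and male 2 again the lowest, and the receptor-like gene Pdgfrl had 0.719 to 1.03 CPM and 0.527 to 0.872 CPM (-0.41).

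Serum response factor (SRF) and its partners of the myocardin family switch on the contractile genes. Srf itself was even between the sexes, at 47.4 to 51.1 CPM in females and 43.7 to 53.0 CPM in males (log2 fold change -0.069, edgeR adjusted p = 0.887). Mrtfa and Mrtfb, the partners that respond to actin assembly, had log2 fold changes of 0.17 and -0.046 (edgeR adjusted p = 0.695 and 0.955). Myocd, the partner specific to cardiac and smooth muscle, had 0, 1 and 0 reads in females and 1, 8 and 12 reads in males. It did not pass edgeR's filter, DESeq2 gave it no adjusted p, and male 1 had a single read, as had female 2. As for Cnn1, no fold is given at this depth. RefSeq promoter windows (GRCm38.p6, 250 bases before to 50 after the start) matched 5 of the 10 genes, which were Acta2, Cnn1, Rgs5, Cspg4 and Notch3. A CArG box, the motif SRF binds, searched by letters on both strands, occurred in 0 of these 5 windows and in 535 of 32851 windows (1.63%), which says only that its letters are not in these windows.

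**Figure D4:**
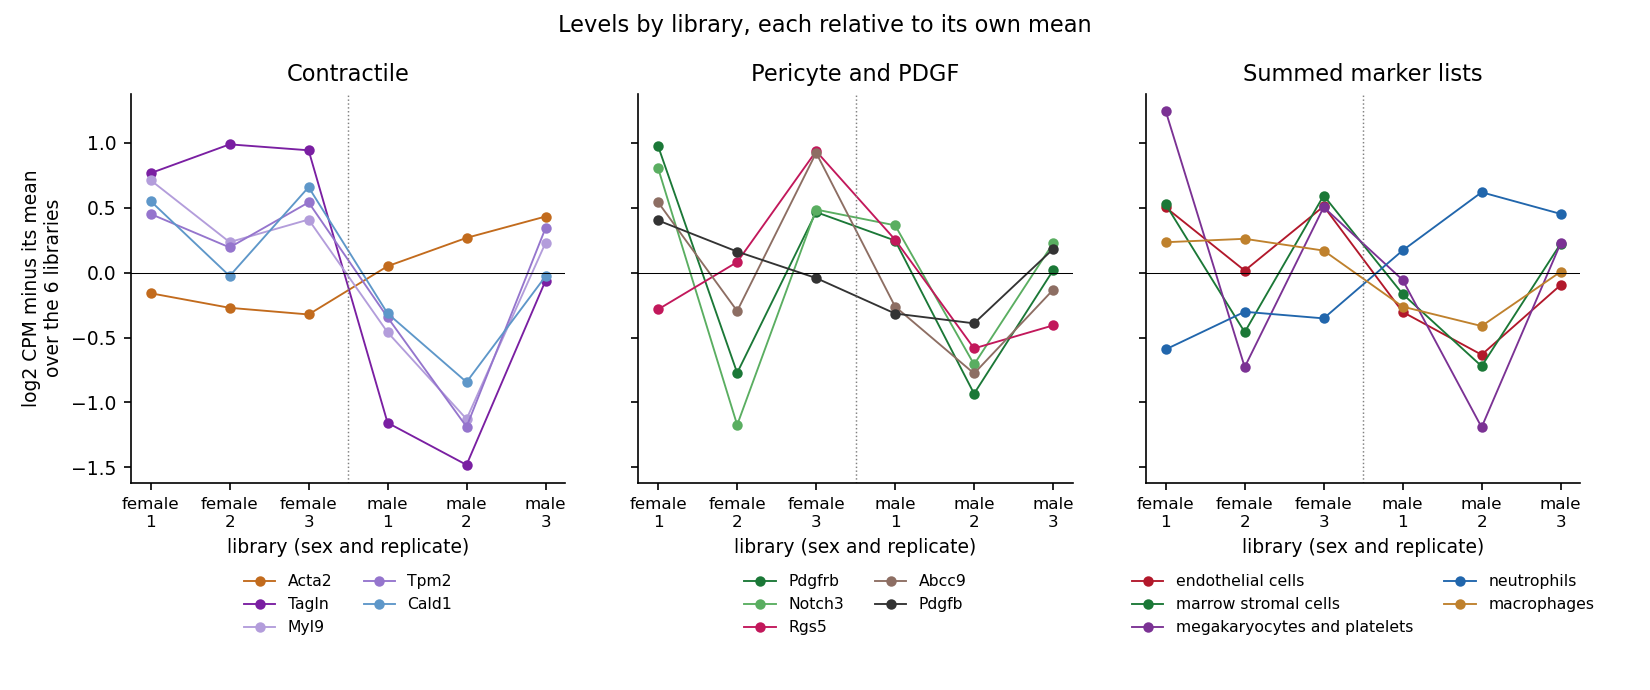
Log2 CPM of single genes (left, middle) and of summed marker lists (right) in each library, each minus its own mean over the 6 libraries, with lines that join the values of a gene or list and imply no order. Acta2 lies above its mean in the 3 males and below it in the 3 females, Tagln the reverse, and Pdgfrb, Notch3, the stromal list and the megakaryocyte list are lowest of their sex in female 2 and male 2.

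The genes closest to Acta2 and Pdgfrb over the 6 libraries were sought among 16101 tested genes with a mean of at least 1 CPM, by the root mean square (RMS) difference of centred log2 CPM. For Acta2 these were Tmem45b (RMS 0.067), Ccdc126 (0.074), Dynlt2b (0.076), Gm17477 (0.077) and C030017D09Rik (0.080), against a spread of Acta2 itself of 0.278. For Pdgfrb they were Angptl2 (0.143), Ptpn3 (0.169), Cx3cl1 (0.174), Gp9 (0.177) and Col16a1 (0.179), against a spread of 0.670. Neither set held another of the 10 genes, but Pdgfrb was the fifth nearest gene to Notch3 (RMS 0.223). With 6 points per gene and so many candidates, a close match is a description of these libraries.

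Actb encodes the cytoplasmic beta-actin found in every cell and was the reference transcript of the study's quantitative PCR. It lies at chr5:142888870-142892509 (GRCm39, minus strand). Its level was 4454, 5172 and 4563 CPM in females and 5057, 5033 and 5115 CPM in males, from 214319 to 280181 reads. The highest and lowest libraries, female 2 and female 1, were both female and differed 1.16-fold, and the males lay between them. The means were 4730 ± 387 CPM and 5068 ± 42.4 CPM (SD, n = 3 each), and the log2 fold change was 0.10 with SE 0.16 and an interval from -0.25 to 0.45 (edgeR adjusted p = 0.875).

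The study's pair of Actb primers, shown here because Actb served as its reference, matched GRCm39 in exon 4, the forward one at chr5:142890199-142890218 and the reverse one at chr5:142890142-142890165. Among annotated transcripts both together matched Actb alone, with an amplicon of 77 bases, and the reverse one was also found in Actg2. Each is given in lower case from its 5′ end.
Actb forward primer: ccactgccgcatcctcttcc
Actb reverse primer: ctcgttgccaatagtgatgacctg

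The actin isoforms are close in coding sequence. Over 1128 aligned coding bases, Actg1 was identical to Actb at 88.7% of positions, Acta1 at 85.0%, Acta2 at 83.0%, Actc1 at 82.9% and Actg2 at 82.7%. The 60 coding bases that start at codon 11 of Actb are printed for all 6 isoforms from GRCm39 with GENCODE M39 annotation, 5′ to 3′, to show how the isoforms differ, with capitals where a base differs from Actb.
Actb: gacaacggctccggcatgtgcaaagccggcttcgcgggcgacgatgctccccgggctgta
Actg1: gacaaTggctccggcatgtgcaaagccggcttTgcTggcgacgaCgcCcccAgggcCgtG
Acta1: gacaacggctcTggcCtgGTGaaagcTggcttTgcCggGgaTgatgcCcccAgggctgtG
Acta2: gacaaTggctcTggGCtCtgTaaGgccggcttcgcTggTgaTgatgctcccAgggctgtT
Actc1: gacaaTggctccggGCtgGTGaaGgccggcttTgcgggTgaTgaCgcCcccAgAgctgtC
Actg2: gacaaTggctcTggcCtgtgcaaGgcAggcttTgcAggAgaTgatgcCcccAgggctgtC
Actg1 differed from Actb at 8 of these 60 bases and Acta2 at 12. Over the whole Acta2 transcript, 0.618% of 40-base stretches and no 100-base stretch recurred in another gene's transcript. For Actb these shares were 24.1% and 1.10%, mostly shared with transcripts of Lrrc58 and Gm15725, and for Actg1 84.5% and 77.2%. The counts of Actb and Actg1 could thus be split or shared with copies, depending on how reads with several matches were handled, which is not given in the sources used here.

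The other actins held no call in edgeR or DESeq2. Actg1, the second cytoplasmic actin, had 1562, 1859 and 1741 CPM in females and 1881, 2059 and 2073 CPM in males. Male 1 was only just above female 2, with no overlap and a log2 fold change of 0.22, SE 0.15 (edgeR adjusted p = 0.667). Acta1 of skeletal muscle had 20.5, 26.5 and 44.5 CPM in females and 23.1, 40.4 and 46.1 CPM in males, and Actc1 of heart muscle 4.50, 4.50 and 9.48 CPM and 4.52, 8.16 and 10.3 CPM. Both were highest in the libraries with number 3, and their log2 fold changes were 0.26 and 0.32 (edgeR adjusted p = 0.831 and 0.817). Actg2 of enteric smooth muscle had 0.477, 0.340 and 0.468 CPM in females and 0.0569, 0.122 and 0.337 CPM in males, of which male 3 and female 2 nearly met (log2 fold change -1.32, SE 0.69, edgeR adjusted p = 0.574). All 11 tested partners of actin filaments had positive log2 fold changes, with a median of 0.15 and no call by either tool, and Tmsb4x, Coro1a and Lcp1, the 3 with the most counts, had 0.35, 0.19 and 0.26.

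Beside other reference transcripts Actb was even. Over the 6 libraries the highest level of Rplp0 was 1.38-fold the lowest and that of B2m 1.26-fold. Of the 10 reference genes tested, Ywhaz alone had a smaller ratio than Actb, at 1.09, and Sdha alone had an unadjusted edgeR p under 0.05, with a log2 fold change of -0.32 (adjusted p = 0.422), and these 2 were picked out after their values had been seen. With the Actb count as the library size, the median log2 fold change of all genes moved to -0.11, and Acta2 and Tagln had 0.40 and -1.77. Relative to that shift both directions held. Taken as a ratio to Actb in each library, the difference of the sexes was 0.40 on the log2 scale for Acta2 and -1.90 for Tagln. Neither ratio overlapped between the sexes (two-sided exact permutation p = 0.1 each, adjusted p = 0.3). Since Actb differed only 1.16-fold over the libraries and Tagln separated the sexes by more, the Tagln ratio had to separate them too. For Acta2 the ratios of female 1 (-9.12) and male 1 (-9.09) all but met. The ratios of Myh11, Rgs5, Cspg4, Notch3, Pdgfrb and Pdgfb to Actb overlapped between the sexes, with exact permutation p-values from 0.3 to 0.8.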

How the data were processed

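RNA of BECs from 12-week-old female and male mice was measured in 6 libraries, grouped by the sex in the labels. The authors deposited raw counts of reads per gene by Ensembl identifier. Sources differ on how these were made: the study's methods name STAR, GRCm39 and 100-nucleotide paired-end reads, and the submitters' processing notes and labels name TopHat2 2.0.11, featureCounts, mm9 (NCBIM37), a directional kit and 40-nucleotide paired-end reads. The use of strand and the handling of multiply matching reads are not given in the sources used here. CPM is not scaled by gene length, so its order between genes was used only to choose which genes to name and was not read as a difference in level. Symbols and GRCm39 positions came from GENCODE M39, which held 31073 of the 37991 identifiers. Total counts of 47678806 to 58325745 put 3 reads, the floor, at 0.0477 to 0.0639 CPM, a limit for counting error only, as amplified reads carry no molecular identifiers and need not be separate molecules.

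Males were compared with females in edgeR 4.0.16 (R 4.3.3): TMM scaling, filterByExpr by sex, then glmQLFit (robust) and glmQLFTest, with p-values adjusted after Benjamini and Hochberg over 19480 genes and called under 0.05. The study's DESeq2 test (1.42.0) was run as an alternative, with 3 other scalings, the Actb count as library size, no filter, the replicate number as a block, and fits without each single library. The main edgeR model, the same with the replicate block, and DESeq2 were run on counts simulated for the genes that passed the filter. The other alternatives were not run on simulated data. Ratios were compared by two-sided exact permutation. Named genes were the 10 genes, every gene of pathway lists of up to 7 genes, in longer pathway lists those called in edgeR, with the block or in DESeq2 and the 3 of highest mean CPM, and in lists of cell type markers the 2 of highest mean CPM. The 5 nearest profiles were named for Acta2 and Pdgfrb. The genes and lists were chosen with earlier results of these data known. Hprt and Vpreb1 of these lists had no match by symbol and were not used here.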

Additional observations from a re-analysis of the deposited data

How the results depend on the processing

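Of 116 alternative values for the 9 genes tested, 109 had the direction and the side of the threshold of the main value (Cspg4 in DESeq2, which had no adjusted p, is counted by direction alone), and no gene of the 10 other than Tagln was called in any of them. edgeR called 8 of all genes, against 14 with total counts alone, 98 with no filter on low counts, 359 in DESeq2 and 5 to 96 when a single library was left out (5 without female 2, 96 without male 3). Of the 10 genes 0 were called, against 1, Tagln, with no filter (adjusted p = 0.0390), in DESeq2 (0.000265) and without male 3 (0.0197), so 0 to 1 over the fits that left out a library. Without a single library, Tagln's log2 fold change ran from -2.21 to -1.41, Myh11's from -0.019 to 0.67 and Notch3's from -0.62 to 0.16, the latter being 0.038 without male 2. Contractile genes called were 1 with no filter, and 3 in DESeq2 and without male 3. The cause was not tested.

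Replicate numbers are shared by the sexes. In deviations from the sex means each female library correlated most with the male library of its number, at 0.194, 0.0402 and 0.298. For female 2 this was barely above its correlation with male 1 (0.0373), and male 2 correlated more with female 1 (0.131) than with female 2. The numbers were therefore not taken to pair the libraries. With the number as a replicate block edgeR called 428 genes, of the 10 genes 1 (Tagln, log2 fold change -1.78, adjusted p = 0.00884), 3 contractile genes, 1 pericyte gene (Abcc9) and 15 of the 24 endothelial genes. Depth limits Cnn1, with 23 reads over the 6 libraries.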

Other observations

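Markers of cell types that the mural lists do not cover gave these values. The osteoblast list, 6 genes, summed to 154 to 243 CPM in females and 141 to 195 CPM in males, and of the 2 with the most counts Ibsp (bone sialoprotein) had 85.2 to 167 CPM and Runx2 (the osteoblast transcription factor) 24.0 to 37.4 CPM over the 6 libraries, both overlapping between the sexes. The skeletal muscle list of 11 genes, which holds Acta1, summed to 28.8, 39.7 and 57.2 CPM in females and 33.2, 48.6 and 58.1 CPM in males. After Acta1, Mylpf had the most counts of this list, with 3.20 to 4.51 CPM in females and 3.27 to 3.47 CPM in males, beside 20.5 to 46.1 CPM for Acta1. Among the 8 macrophage genes, all were lower in males at an unadjusted edgeR p under 0.05 (9.79% of all genes passed), none passed at an adjusted p under 0.05, and DESeq2 called 2 (2.08% of all genes). The pairs with the most counts in the other marker lists had these log2 fold changes of males over females in edgeR. They were 1.06 and 0.97 for the neutrophil genes S100a8 and S100a9, -0.39 and -0.42 for the macrophage genes Vcam1 and C1qa, and -0.43 and -0.31 for the stromal genes Cxcl12 and Col1a2. They were 0.55 and 0.50 for the haemoglobin genes Hbb-bs and Hba-a1, -0.013 and -0.065 for the B cell genes Cd79b and Cd79a, and -0.58 and -1.02 for the platelet genes Pf4 and Ppbp. None of these 12 genes passed in edgeR at an adjusted p under 0.05, and DESeq2 called 9 of the 14 neutrophil genes, beside 2.08% of all genes, S100a8 and S100a9 among them. It also called 1 of the 12 stromal genes, Adipoq (edgeR log2 fold change -1.69), and 1 of the 6 osteoblast genes, Alpl (-0.90). These 2 were picked out after their values had been seen. DESeq2 called no erythroid, B cell, skeletal muscle or platelet gene of the lists.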
